A study of Mus musculus with 2 samples.

Results

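Ctnnb1 and 9 other genes of cadherin-catenin junctions were examined for N6-methyladenosine (m6A) in native RNA from mouse retinal organoids. They were taken by name from the deposited tables, which hold 8262 named genes in all: Ctnnb1, Ctnna1, Ctnna2, Ctnnd1, Ctnnd2, Cdh1, Cdh2, Jup, Afdn and Tjp1. Of the 10 genes, 4 were listed in replicate 1 with 53 positions and 9 in replicate 2 with 85 positions. The genes were chosen by name with the number of Ctnnb1 sites shared by both libraries in view, and sites were selected on their coverage, so site counts are given below as a description and were not tested.

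The study concerns m6A placed by METTL3 in retinal development. Retinal organoids are aggregates that form early eye tissue in culture from stem cells, and Rx:GFP is a stem cell line that carries a fluorescent reporter of Rx (Rax), a gene of the eye field. Both libraries came from wild-type Rx:GFP organoids at day 6, differentiated with 0.1 µM AGN for these 6 days, so they form 1 group (n = 2) and the design holds no contrast between conditions. From each, 1 µg of poly(A)-selected RNA was read as native RNA with the RNA002 chemistry in a run of about 48 h, with a separate flow cell for each library; nothing in the labels says whether the RNA came from separate cultures, so the spread between replicates may be technical. Eye markers were present: of 11 retinal progenitor genes, 10 were listed and 7 had a site in both replicates: Rax, Six6, Lhx2, Sox2, Hes1, Sfrp2 and Nr2e1. None of 6 pluripotency, 5 mesoderm or 5 endoderm markers was listed at any depth, while 2 of 4 surface epithelium markers (Krt8, Krt18), 1 of 4 neuronal markers (Tubb3) and 3 of 4 pigment epithelium markers (Mitf, Pmel, Dct) were listed, none of them above 17 reads. The tables list 26441 and 50099 positions, with a median coverage of 10 and 12 reads.

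Classical cadherins hold neighbouring cells together through their outer domains. Inside the cell their tails bind β-catenin or its relative plakoglobin, α-catenin links that complex to actin, and p120-type catenins keep the cadherin at the membrane. β-catenin also has a second role as the transcriptional partner of TCF/LEF factors in Wnt signalling, and its protein is held low by a destruction complex. In the neuroepithelium that gives rise to the retina, N-cadherin is the main classical cadherin and apical junctions keep the tissue in order. m6A is written on adenosine in the context DRACH, where D is A, G or U, R is A or G and H is A, C or U.

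Each row of the deposited tables gives a position on a transcript, a motif of 5 bases around it, a coverage in reads and a fraction modified between 0 and 1. The tables hold 4 motifs, given here in DNA letters with the adenosine of the m6A context in capitals, because the listed fraction differs so much between them that a gene's mean depends on which of them it carries.
Motif of the highest fractions: ggAca
Motif that opens with A: agAct
Motif that opens with G and ends in T: ggAct
Motif that ends in C: ggAcc
On the deepest transcript of every gene, positions that reached 20 reads in both replicates had a median fraction of 0.677 ± 0.0147 on the GGACA motif (SD, n = 2). The AGACT motif followed with 0.262 ± 0.00608, the GGACT motif with 0.255 ± 0.0161 and the GGACC motif with 0.221 ± 0.00877 (each SD, n = 2). The longer sequence around the sites was not used here.

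A position with at least 20 reads is called a site, and a site reached in both replicates on the same transcript at the same position is called a shared site. Each gene was counted on its deepest transcript, the one that holds its most covered position. By this rule the junction genes had 23 shared sites in 3 genes: 11 in Ctnnb1, 6 in Cdh2 and 6 in Ctnna1. The other 7 genes had none: Tjp1 was listed in both libraries and 5 genes in replicate 2 only, all below 20 reads, and Cdh1 was not listed. Over all named genes, 22.7% had a shared site, a count on which the choice of these genes rested.

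**Figure D1:**
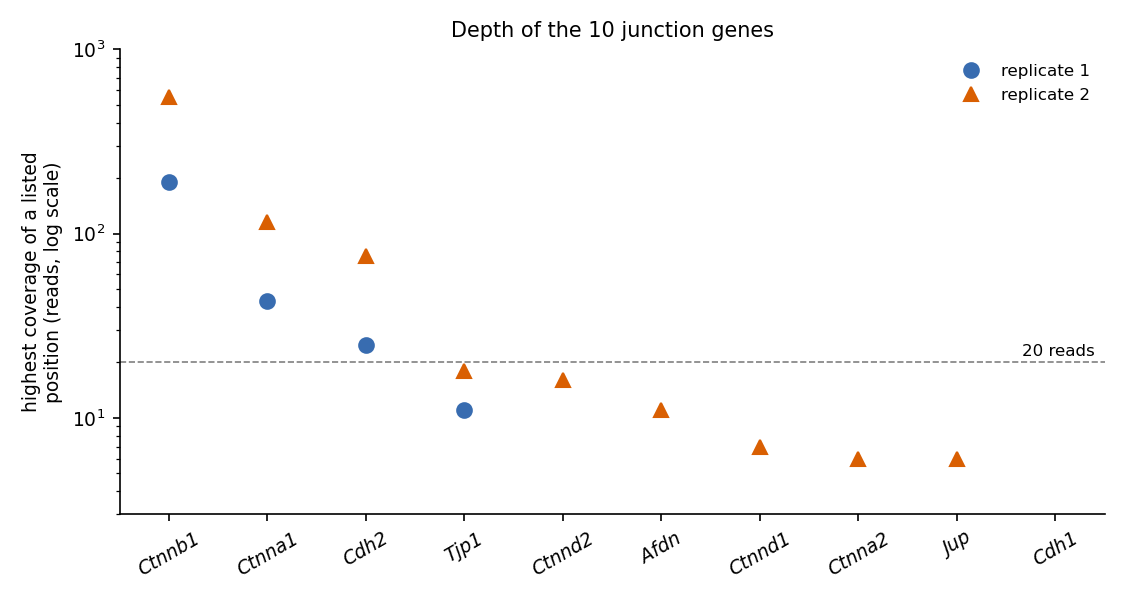
Highest coverage of a listed position of each junction gene, in reads on a log axis, with circles for replicate 1 and triangles for replicate 2; the dashed line marks 20 reads. Ctnnb1, Ctnna1 and Cdh2 lie above the line in both replicates, 6 genes lie below it, 5 of these with a value in replicate 2 only, and Cdh1 has no point.

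Ctnnb1 encodes β-catenin (chromosome 9, 120758282 to 120789573; gene coordinates as deposited, with their build not settled). On its deepest transcript, ENSMUST00000007130.14, coverage at listed positions ran from 113 to 191 reads in replicate 1 and from 377 to 551 in replicate 2. The highest fraction of this transcript was at position 338, a GGACA, with fractions of 0.970 (113 reads) and 0.963 (380 reads) in replicates 1 and 2 (mean 0.966 ± 0.00509, SD, n = 2). A second GGACA with a high fraction lay at position 2341, with 0.917 over 168 reads and 0.881 over 524 reads (0.899 ± 0.0255, SD, n = 2). In both replicates these positions stood above every other shared site of the gene.

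The remaining GGACA sites of Ctnnb1 were lower and differed among themselves. Position 3515 had 0.706 and 0.661, position 2282 had 0.680 and 0.577, and position 2159 had 0.589 and 0.597 in replicates 1 and 2. Position 1925 was the lowest GGACA, with 0.376 over 164 reads and 0.362 over 498 reads. Within this 1 motif and 1 transcript the mean fraction therefore spanned 0.597, from 0.369 to 0.966, while the largest difference between replicates at any Ctnnb1 shared site was 0.103, at position 2282. Set against the 1857 shared GGACA sites of all genes, position 338 lay at percentile 89.1 in replicate 1 and 88.7 in replicate 2. Position 2341 lay at 75.8 and 72.8, and position 1925 at 24.9 and 25.1.

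Shared Ctnnb1 sites on the other motifs all lay below the lowest GGACA. The GGACT sites at positions 1758 and 937 had means of 0.297 ± 0.0202 and 0.259 ± 0.0499, and that at position 2064 had 0.0567 ± 0.00495 over 162 and 508 reads (each SD, n = 2). The GGACC at position 2570 had 0.309 ± 0.00785 and the AGACT at position 2711 had 0.155 ± 0.0101 (each SD, n = 2). Position 2064 thus had a low listed fraction in both replicates, while the next shared site, the GGACA at 2159, had a mean of 0.593.

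Over its 11 shared sites the mean fraction of Ctnnb1 was 0.479 in replicate 1 and 0.469 in replicate 2 (0.474 ± 0.00656, SD, n = 2). Relative to the median of each site's motif, the gene lay at -0.0128 and -0.0049 (-0.00887 ± 0.00561, SD, n = 2), with 4 sites above their motif median in both replicates and 5 below it in both. The same mean over all shared sites was 0.0278 ± 0.00279 (SD, n = 2), and Ctnnb1 lay below it in both replicates. GGACA made up 6 of its 11 shared sites. Of all shared sites, 44.6% lay above their motif median in both replicates, against 4 of 11 in Ctnnb1. The sign of the gene's value was not stable: it turned to 0.00778 when all transcripts were used and to 0.0426 on the transcript with the most listed positions, which has 4 shared sites.

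**Figure D2:**
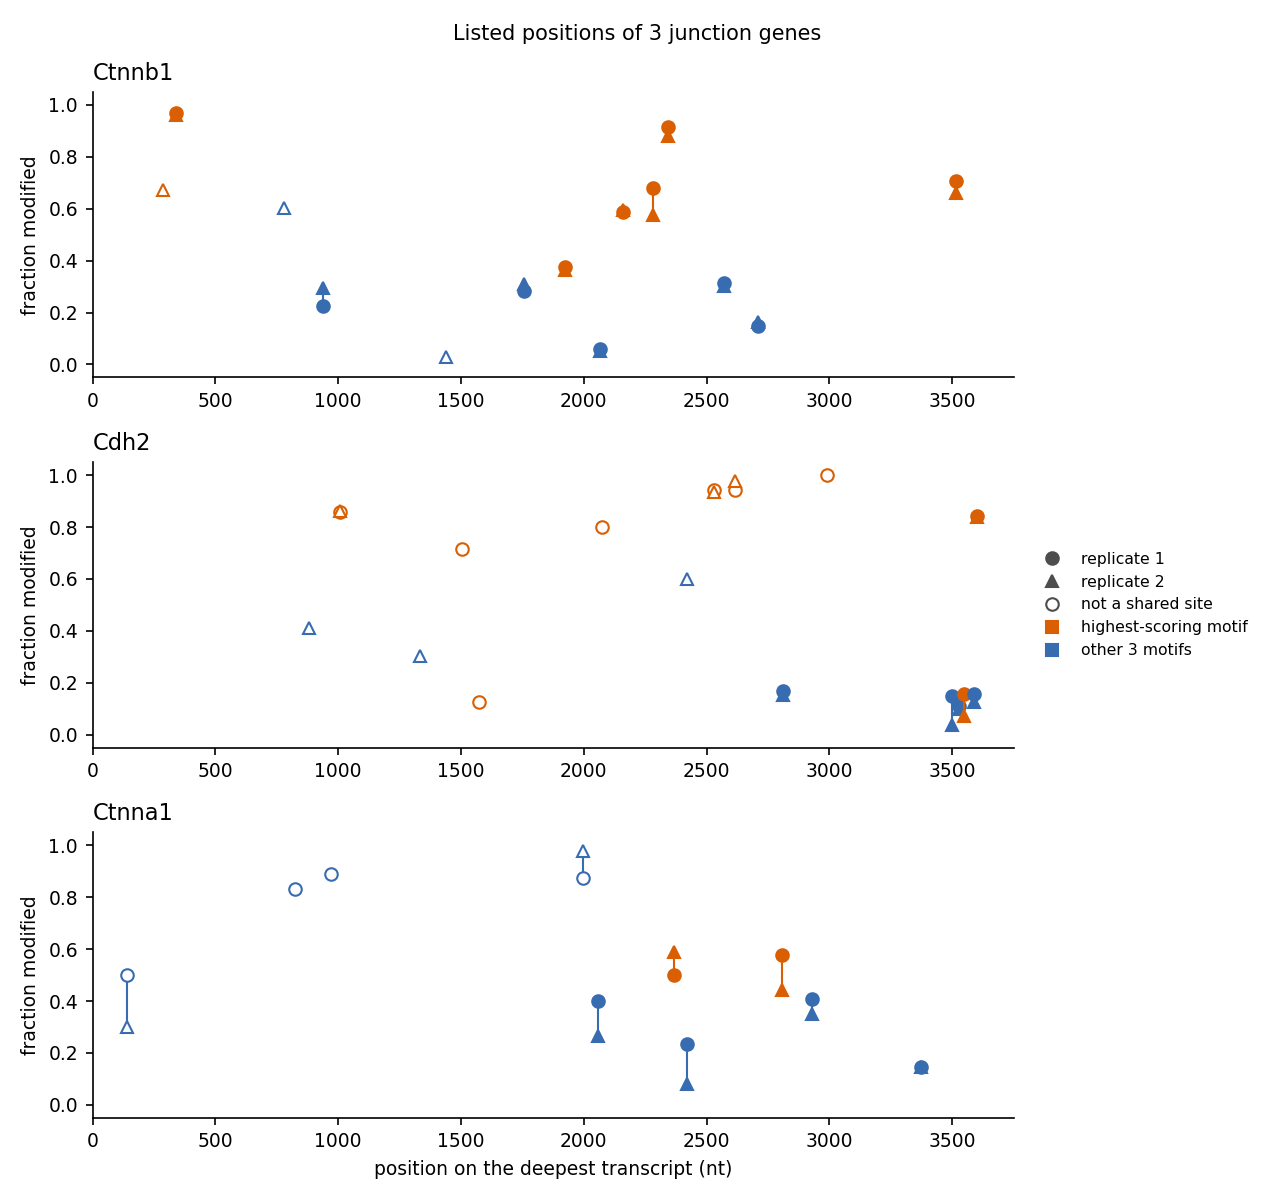
Fraction modified (0 to 1) at every listed position of Ctnnb1, Cdh2 and Ctnna1 against the position on the deepest transcript in nt. Circles are replicate 1 and triangles replicate 2, joined by a line where both are listed; filled symbols are shared sites, open symbols are positions listed in 1 library or with fewer than 20 reads in 1 of them, orange marks GGACA and blue the other 3 motifs. In Ctnnb1 the shared sites run from position 338 to 3515, while in Cdh2 all of them lie from position 2810 onward, with 5 of 6 under 0.2.

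On the deepest Ctnnb1 transcript, replicate 2 listed 3 more sites that replicate 1 did not list there at any coverage. They were a GGACA at position 286 with 0.674 over 377 reads, a GGACC at position 779 with 0.604 over 414 reads and a GGACT at position 1438 with 0.0305 over 459 reads. The first and the second are higher than most of the gene's shared sites. Positions 779 and 1438 lie between shared sites with 113 to 159 reads in replicate 1, so coverage on either side of them was well over 20 reads there. Such gaps occurred over all genes. Of sites of replicate 2 flanked on both sides by sites of replicate 1, 13.1% were not listed in replicate 1. In the junction genes these were 2 of 19, both of them the Ctnnb1 positions just named. In the other direction they were 17.6% over all genes and 1 of 21 in the junction genes, in Cdh2. Positions 704 and 1363 of a shallower transcript, ENSMUST00000154356.7, which pair with 779 and 1438 at an offset of 75 nt, were listed in replicate 1, with 1 over 5 reads and 0.125 over 8 reads. That transcript had 2 sites in replicate 2 that replicate 1 did not list on it, at position 263 with 24 reads and at position 1109 with 25 reads. Whether an unlisted position was examined is not stated.

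Ctnnb1 was listed on 3 transcripts. ENSMUST00000154356.7 had 14 listed positions in each replicate, with 5 to 46 reads in replicate 1 and 24 to 89 in replicate 2, and 4 shared sites. ENSMUST00000215573.1 had 4 and 3 listed positions and 1 shared site, at position 1184. Positions of 2 transcripts were paired where a fixed offset joined equal motifs. For ENSMUST00000154356.7 an offset of 74 nt joined 7 positions, from 2064 of the deepest transcript onward, and an offset of 75 nt joined 6 more, from 338 to 1925. For ENSMUST00000215573.1 an offset of 2331 nt joined 3. Paired positions may be the same base of the gene, read from molecules that were assigned to different transcripts, so they do not add independent sites.

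Fractions at paired positions were compared within each replicate. With at least 20 reads on both, 7 positions of ENSMUST00000154356.7 were compared in replicate 2 at the offset of 74 nt: the deepest transcript was higher at 3 and lower at 4, with a median difference of -0.0089 and a largest size of 0.0730. In replicate 1 there were 4 such pairs, with differences from -0.0820 to 0.138. Allowing both offsets, a choice made after the data were seen, gave 12 pairs in replicate 2, a median of 0.0108 and a largest size of 0.115. The site near the 3′ end was reached on all 3 transcripts: position 3515 of the deepest had 0.706 and 0.661, its partner at 3441 had 0.788 and 0.734, and that at 1184 had 0.682 and 0.767, in replicates 1 and 2. The shallowest of these 3 was above the deepest in replicate 2 and below it in replicate 1, so their order was not the same in both libraries.

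**Figure D3:**
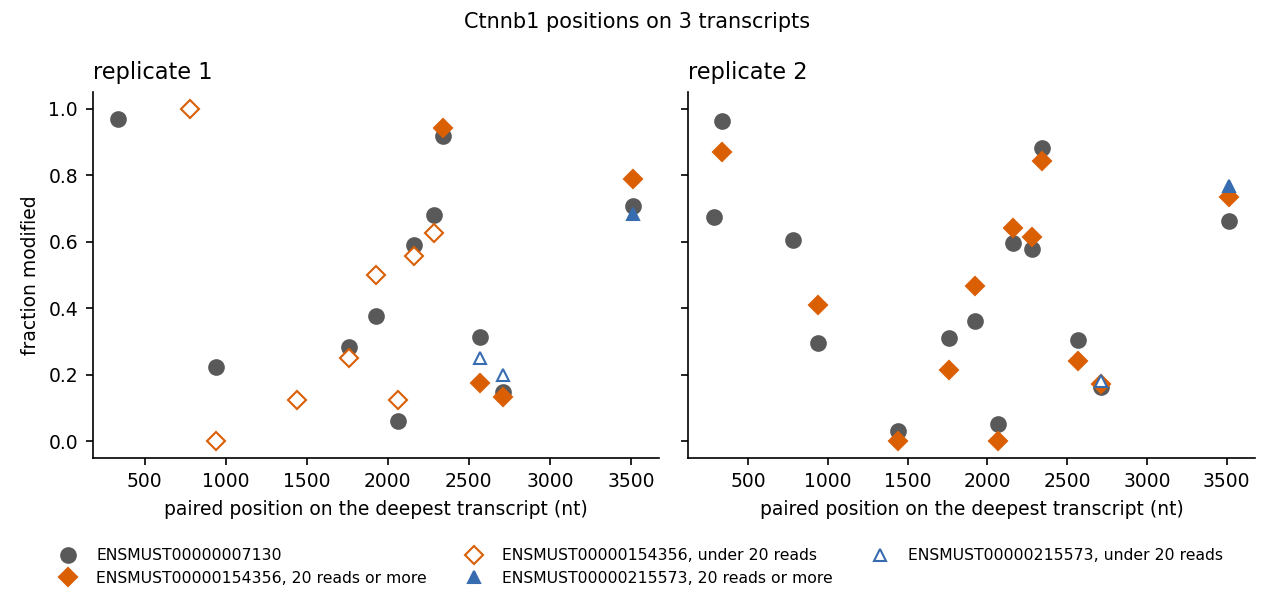
Fraction modified (0 to 1) of Ctnnb1 in replicate 1 (left) and replicate 2 (right) against the position on the deepest transcript in nt, with positions of the other transcripts moved to their partner. Grey circles are the deepest transcript, orange diamonds ENSMUST00000154356 and blue triangles ENSMUST00000215573, open where coverage was under 20 reads. The largest gap between a filled diamond and the grey circle at the same position is 0.138.

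For 3 places on the shallower transcripts, the deepest had no listed partner. An AGACT at position 1109 of ENSMUST00000154356.7 had 0.25 over 25 reads in replicate 2, and a GGACC at position 1201 had 0.167 with 7 reads in the first library and 0.35 with 25 reads in the second. A GGACA was listed on both shallower transcripts. It was at position 2485 of ENSMUST00000154356.7, with 0.25 over 26 reads in replicate 1, and at position 228 of ENSMUST00000215573.1, with 0 over 6 reads and 0.111 over 9 reads. Both correspond to position 2559 of the deepest transcript, which was not listed in either replicate although position 2570, 11 nt further on, had 174 and 530 reads. Site lists per transcript thus differed even where coverage was high.

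Cdh2 encodes N-cadherin (chromosome 18, 16721934 to 16942303; ENSMUST00000025166.13). Its 6 shared sites lay between positions 2810 and 3600, with 20 to 25 reads in replicate 1 and 55 to 76 in replicate 2. A GGACA at position 3600 had 0.842 in replicate 1 and 0.837 in replicate 2 (0.840 ± 0.00346, SD, n = 2). Another GGACA, 51 nt before it at position 3549, had 0.158 and 0.0727 (0.115 ± 0.0602, SD, n = 2). The difference within this pair of equal motifs was 0.684 in replicate 1 and 0.765 in replicate 2, far beyond the difference between replicates at either site. Position 3549 lay at percentiles 8.35 and 2.96 of all shared GGACA sites, the lowest of the junction genes. Among the shared sites of Ctnnb1, the closest pair of equal motifs, GGACA at positions 2282 and 2341, differed by 0.237 and 0.304.

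The other 4 shared sites of Cdh2 were low in both replicates. They were the GGACC sites at 2810 (0.167 and 0.152) and 3526 (0.111 and 0.0980), and the GGACT sites at 3501 (0.150 and 0.0357) and 3587 (0.158 and 0.128). The mean over shared sites was 0.264 and 0.221 (0.242 ± 0.0309, SD, n = 2), and 5 of 6 lay below their motif median in both replicates. Above it in both lay 1 of 6, against 44.6% of all shared sites.

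That mean describes the 3′ part of the transcript, where coverage sufficed. Just inside the minimum, position 2810 had 20 reads in replicate 1 and a mean fraction of 0.159. Just outside it, the GGACA sites at 2532 and 2615 had 19 reads each in replicate 1, with 0.944 and 0.941, and 50 and 52 reads in replicate 2, with 0.935 and 0.977. A GGACA at 1009 had 0.857 over 10 reads and 0.864 over 32 reads. With all 9 positions listed in both replicates the mean of Cdh2 was 0.468, and over the 12 sites of replicate 2 alone it was 0.451. Replicate 1 further listed a GGACA at position 2991 with a fraction of 1 over 23 reads that replicate 2 did not list.

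Cdh1, which encodes E-cadherin, was not listed at any position in either replicate. Since a position was listed only from 5 reads on, and only on the 4 motifs, its absence does not separate low expression from other reasons.

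Ctnna1 encodes αE-catenin (chromosome 18, 35251912 to 35387832; ENSMUST00000042345.6). Its 6 shared sites had 21 to 43 reads in replicate 1 and 74 to 116 in replicate 2. The highest means were at the GGACA sites, with 0.5 and 0.588 at position 2367 and 0.579 and 0.443 at position 2808. The AGACT at 2928 had 0.409 and 0.349, and the GGACC at 2057 had 0.4 and 0.267. The GGACC at 2421 had 0.235 and 0.0820, and the GGACT at 3374 had 0.147 and 0.145. Their mean was 0.378 in replicate 1 and 0.312 in replicate 2 (0.345 ± 0.0469, SD, n = 2). The GGACC at 1997, which missed the minimum by 1 read in replicate 1, was far above the shared sites: it had 0.875 over 19 reads and 0.979 over 59 reads, although GGACC is the motif with the lowest median. Among the GGACC positions of the junction genes with at least 20 reads in replicate 2 it was the highest.

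Across motifs, the site means of each of the 3 genes spread wider than its replicates differed at any shared site. Such a spread was usual: genes with 11 or more shared sites had a median range of 0.896. Within 1 motif it did not always hold. The 2 GGACA sites of Ctnna1 differed by 0.033 in mean, while replicate 2 minus replicate 1 was 0.0882 and -0.136 at them. The gene means were not all apart. Ctnnb1 had the highest mean fraction, followed by Ctnna1 and Cdh2, in both replicates. Relative to motif medians, Cdh2 was the lowest of the 3 (-0.125 and -0.159), while Ctnna1 (-0.0113 and -0.0696) and Ctnnb1 overlapped. This order depends on the coverage minimum. Without one the means were 0.474 in Ctnnb1, 0.468 in Cdh2 and 0.425 in Ctnna1. The values relative to motif medians were then -0.0167, -0.0280 and 0.0648 in the same order of genes. Cdh2 thus lay close to Ctnnb1 on both measures. Ctnna1 was the lowest by mean fraction and became the highest relative to motif medians. An exact paired permutation test over 2 replicates cannot give a p-value under 0.5, so none was run.

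Jup encodes plakoglobin, which can take the place of β-catenin at the cadherin tail. It was listed in replicate 2 only, at 3 positions with 6 reads each and fractions of 0, 0.4 and 0.667. Ctnna2, the α-catenin of neural tissue, had 1 position with 6 reads and a fraction of 0. Ctnnd1, which encodes p120-catenin, had 10 positions with 5 to 7 reads, and Ctnnd2, δ-catenin, had 4 with 9 to 16 reads. The deepest Ctnnd2 positions were 3 GGACA at 4286, 4304 and 4333, with 0.2, 0.818 and 0.909 over 16 reads each.

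Afdn encodes afadin, which ties nectins to actin, and Tjp1 encodes ZO-1, a scaffold of tight and adherens junctions. Afdn was listed in replicate 2 on 2 transcripts, with 6 to 11 reads. Tjp1 had 9 positions in replicate 2 with 11 to 18 reads and fractions from 0.0833 to 0.909. In replicate 1 it had 1, at position 6420, with a fraction of 0 over 11 reads. At these depths a single fraction is too imprecise to compare between genes, and how many reads formed each fraction is unknown.

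Between replicates, none of the 23 shared sites differed by more than 0.2, against 5.90% of 4812 shared sites over all genes. A difference beyond 0.1 was found at 5 of the 23, against 26.0% over all genes. These were 3 sites of Ctnna1 and 1 each of Cdh2 and Ctnnb1. Where both replicates had 100 or more reads, 5.21% of sites over all genes differed by more than 0.1, and 1 of the 11 Ctnnb1 sites did. Beyond 0.2 at that depth were 2 of 691 sites over all genes and no Ctnnb1 site. The fraction was lower in replicate 2 at 18 of the 23 sites, against 52.4% over all genes: at 6 of 6 in Cdh2, 5 of 6 in Ctnna1 and 7 of 11 in Ctnnb1. Sites of a gene share their reads, so these counts rest on 3 genes. The median difference, replicate 2 minus replicate 1, was -0.0141 at the junction sites and -0.0043 over all genes.

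**Figure D4:**
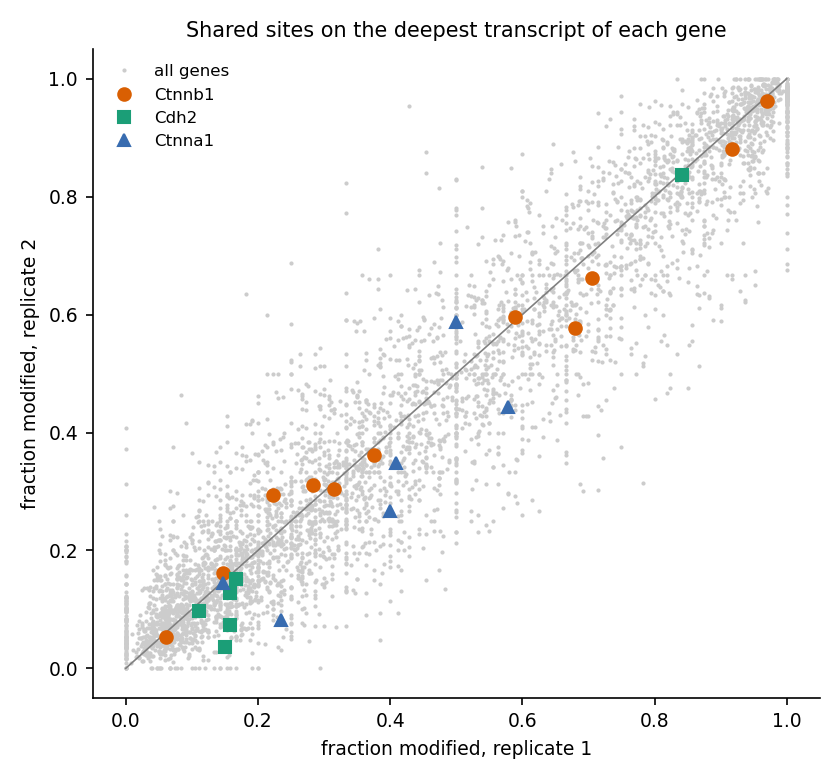
Fraction modified (0 to 1) in replicate 2 against replicate 1 at the shared sites on the deepest transcript of each gene. Grey points are the 4812 sites of all genes, coloured symbols the 23 sites of Ctnnb1, Cdh2 and Ctnna1, and the line marks equal values; the largest difference among the coloured symbols is 0.153.

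A fraction of at least 0.5 in both replicates was found at 7 of the 23 junction sites, against 36.3% of all shared sites. Without a coverage minimum it was found at 11 of 28 positions, against 34.5% over all genes, so the share lay below the background with the minimum and above it without. Of the 7 sites, 5 were in Ctnnb1, 1 in Cdh2 and 1 in Ctnna1, and all were GGACA. Above their motif median in both replicates were 7 of the 23, against 44.6% over all genes. Without a coverage minimum these were 12 of 28 against 39.9%, so the side of the background on which the share lies turned with the minimum. The mean fraction was 0.397 and 0.363 over the junction sites (0.380 ± 0.0234, SD, n = 2), and 0.444 and 0.435 over all shared sites (0.439 ± 0.00577, SD, n = 2). This order also turned without a minimum, where the junction mean was 0.458 and that over all genes 0.433. GGACA made up 10 of the 23 sites and 38.6% of all shared sites.

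Coverage of all 3 genes was higher in replicate 2 than the usual gap between the libraries. The ratio of replicate 2 to replicate 1 had a median of 3.10 in Ctnnb1, 3.04 in Cdh2 and 3.36 in Ctnna1, against 1.95 over 1874 genes, which put the 3 genes at percentiles 94.7, 93.8 and 97.3. The ratio was larger for long transcripts: its median was 2.56 in the 102 genes whose last shared site lay from position 3000 to below 4000, and 1.71 in the 742 genes whose last lay before 1000. Each of the 3 junction genes has its last shared site in the former range, and each lay above the upper quartile of those 102 genes, 2.95. At the 4 shared sites of ENSMUST00000154356.7 the ratio was 1.93 to 2.33, and at position 1184 of ENSMUST00000215573.1 it was 1.58, against 2.88 to 3.12 at their partners on the deepest transcript. At positions of ENSMUST00000154356.7 with few reads in replicate 1 it reached 4, at position 862 with 6 and 24 reads.

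Reads of native RNA start at the poly(A) tail. Coverage fell from the 3′ end toward the 5′ end in all 3 genes. In Ctnnb1 the first listed position had 0.592 of the coverage of the last in replicate 1 and 0.684 in replicate 2. In Cdh2 these were 0.4 and 0.355, and in Ctnna1 0.209 and 0.345. Over transcripts whose listed positions span 2000 to 4000 nt, with at least 20 reads at the last, the median was 0.441 in replicate 1 and 0.526 in replicate 2. The deepest Ctnnb1 transcript lay above that median in both replicates, and Cdh2 and Ctnna1 lay below it. The second Ctnnb1 transcript, ENSMUST00000154356.7, had 0.109 and 0.270, also below it. In replicate 1 every listed Cdh2 position before 2810 and every listed Ctnna1 position before 2057 had under 20 reads, and no listed Ctnnb1 position of the deepest transcript did.

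**Figure D5:**
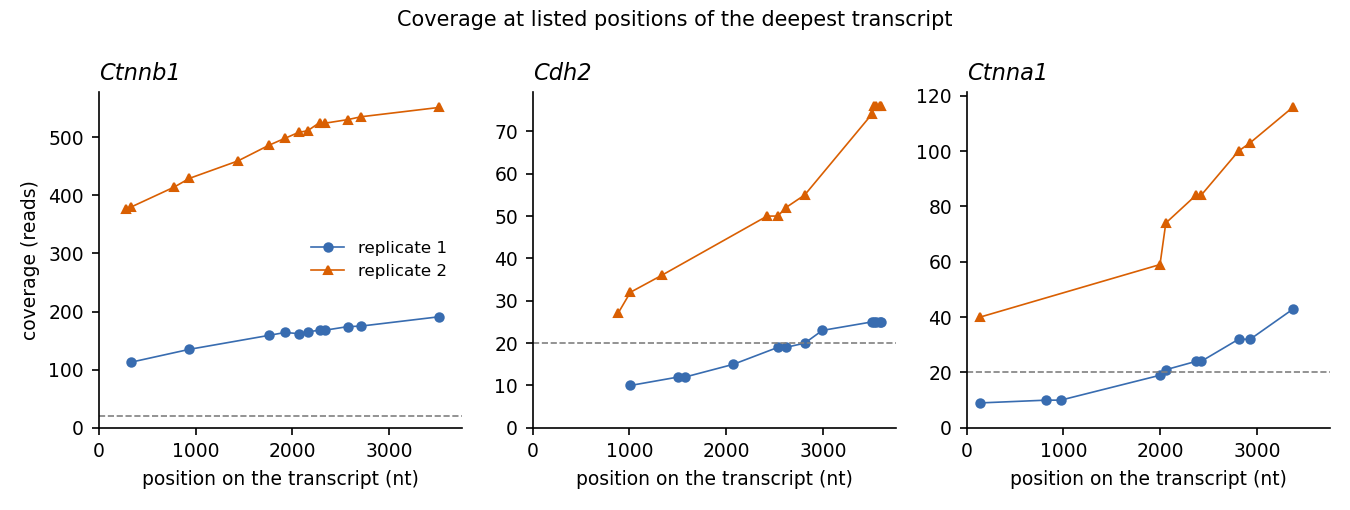
Coverage in reads at the listed positions of the deepest transcript of Ctnnb1, Cdh2 and Ctnna1 against position in nt, with circles for replicate 1 and triangles for replicate 2; each panel has its own vertical scale from 0 and the dashed line marks 20 reads. Replicate 1 passes 20 reads at every listed position of Ctnnb1, and only toward the 3′ end in Cdh2 and Ctnna1.

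Other genes of adherens, tight and apical junctions were counted in the same way. Of a list of 60 such genes, 40 were listed in either replicate. Of these 40, 6 had a shared site, against 22.7% of all listed genes, and the 6 held 19 sites. Their median fraction was 0.438 and 0.5, against 0.375 and 0.364 over all shared sites, and 11 of the 19 lay above their motif median in both replicates, where all genes had 44.6%. Without a coverage minimum, at 99 positions of 25 genes, their medians were 0.333 and 0.412, against 0.375 and 0.357 over all genes, and 37 of the 99 lay above their motif median against 39.9%, so the order of the list and all genes turned in replicate 1 and in this share. Ajuba, a LIM protein that binds α-catenin, had 8 shared sites and a mean of 0.478 ± 0.0248 (SD, n = 2). Llgl1, a polarity protein, had 5 with a mean of 0.520 ± 0.0241 (SD, n = 2) although none is a GGACA, and Vasp, which promotes actin growth, had 2 with 0.477 ± 0.0627 (SD, n = 2). Cdh11, another classical cadherin, had 2 with 0.667 ± 0.00689 (SD, n = 2). Rap1b and Ptprf had 1 each, with 0.0845 and 0.0693.

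Among 20 partners and regulators of β-catenin, 16 were listed. Of these 16, 3 had a shared site, against 22.7% of all listed genes, and the 3 held 6 sites. Csnk1a1, the casein kinase that primes β-catenin for degradation, had 3 shared sites and a mean of 0.620 ± 0.0120 (SD, n = 2). Its sites ran from 0.0587 to 1. Ctnnbl1, a β-catenin-like nuclear protein, had 2 with 0.626 ± 0.124, and Ctnnbip1, an inhibitor of the contact between β-catenin and TCF, had 1 with 0.441 ± 0.0841 (each SD, n = 2). Apc, Axin1 and Gsk3b of the destruction complex had no shared site, their highest coverage being 11 reads in replicate 1 and 23 in replicate 2. Gsk3a of the same list had none either, at up to 16 reads in replicate 1 and 69 in replicate 2.

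The genes most like Ctnnb1 were sought among 12 others with 10 to 12 shared sites on their deepest transcript, by mean fraction over both replicates. They were Chtf8 with 11 sites and 0.481 ± 0.0316, Sar1a with 11 and 0.495 ± 0.00178, and Ctsz with 10 and 0.434 ± 0.0397 (each SD, n = 2). Their highest coverage was 36 to 53 reads in replicate 1, against 191 in Ctnnb1. Chtf8 reached this mean with 2 GGACA sites and lay at 0.161 relative to its motifs, against -0.00887 for Ctnnb1 with 6.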

How the data were processed

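The genes and lists were chosen with earlier results of these data known. Native poly(A) RNA of 2 wild-type organoid libraries was sequenced. The coverage is a whole-number read count per position and the fraction modified a fraction from 0 to 1, both as deposited by the authors; positions start at 5 reads. The base caller, aligner, modification caller and transcript reference are not given in the sources used here. The submitters' processing notes name the build mm10, yet 1 of 9 junction genes had a deposited start within 1000 bases of the RefSeq start for GRCm38.p6, so gene coordinates are printed as deposited with the build unsettled. Only 9 of 53 junction fractions in replicate 1 and 21 of 85 in replicate 2 were whole multiples of 1 over the coverage (tolerance 5e-05). The reads behind a fraction are thus unknown, and no interval or test on reads was computed.

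Tables were joined on transcript, position and motif with pandas 2.3.3 and Python 3.11.15. Sites needed 20 reads. Motif medians came from all shared sites. The gene mean relative to motif medians was checked on simulated data with a constant fraction for each motif and known gene shifts. No other summary was simulated. Named are all 10 genes, the 3 genes with the most shared sites of the junction and β-catenin partner lists each, and the 3 genes most like Ctnnb1. Cdh11, Rap1b, Ptprf, Apc, Axin1, Gsk3b and Gsk3a were added after their values were seen. Cell type markers are named where they had a shared site or, for other cell types, were listed. Alternatives were other coverage minimums, transcript choices, weighting by coverage, matching within 5 nt and leaving out a replicate. The minus tables hold none of these genes and were not used.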

Additional observations from a re-analysis of the deposited data

How the results depend on the processing

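With 50 reads the junction genes kept 11 shared sites, all in Ctnnb1, in place of 23, since no site of Cdh2 or Ctnna1 reached 50 reads in replicate 1. The mean fraction of all junction sites, 0.380, moved by more than its SD under each of 5 alternatives: it was 0.474 with 50 reads, 0.458 without a minimum, 0.410 with all transcripts, 0.346 with the transcript that lists the most positions and 0.441 when weighted by coverage. The mean relative to motif medians, -0.0519, was -0.0113 with 50 reads, 0.00298 without a minimum and -0.0348 with all transcripts. The cause of these moves was not tested. Without each replicate the mean fraction ran from 0.363 to 0.397 and the relative mean from -0.0619 to -0.0418, which with n = 2 says nothing about stability. A threshold of 0.1 in place of 0.2 gave 5 sites that differed between replicates in place of 0. Matching within 5 nt gave 23 shared sites, as did exact matching. Paired positions of Ctnnb1 transcripts in replicate 2 numbered 8 over both shallower transcripts, 3 with 50 reads, and 13 with offsets allowed to differ by 1 nt, an alternative chosen after seeing the data. Genes with a shared site numbered 25 without a minimum and 0 with 50 reads in the junction list (6 with 20 reads), and 9 and 1 among the β-catenin partners (3 with 20 reads). For single genes 13 of 45 alternative values moved, not counting those that leave out a replicate, and 5 of the 13 were without a minimum; Ctnnb1 has 4 shared sites on the transcript with the most listed positions. No paired analysis was possible because the samples form 1 group, so their replicate numbers pair no samples across groups.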
